A study of Rattus norvegicus with 12 samples.

Results

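The genes described here encode ubiquitin-conjugating enzymes, known as E2 enzymes, and were measured in a rat line of dopaminergic neural cells named N27. Members were all array probes, control features aside, whose gene name in the deposited array files begins with Ube2, apart from 1 gene that is not reported. The rule used names alone and gave 48 of 45598 probes, which represent 31 genes of the 36181 named on the array. Of these 31 genes, 28 had at least 1 probe that the scanning software called well above background on 6 or more of the 12 arrays, and these 28 were tested among 13542 genes. Ube2q2l and Ube2ql1 were well above background on 0 arrays and Ube2w, which attaches ubiquitin to protein N termini, on 3 arrays. These 3 genes were not tested.

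The 6 fipronil samples were N27 cells given 25 µM of the compound for 24 h, the 6 control samples were untreated per the series' design text, and total RNA was measured in both. The labels' treatment protocol names fipronil for every sample, so the groups rest on the titles and the treatment label. Fipronil is a phenylpyrazole insecticide that blocks GABA-gated chloride channels, and the study asked what it does to these cells. N27 is a single immortalised line, and the labels name no genetic change in either group. Whether the 6 samples of a group came from separate cultures, and whether the controls received a vehicle, is not given in the sources used here, so p-values measure only the spread between these samples.

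An E2 enzyme accepts ubiquitin on its active-site cysteine from an E1 activating enzyme and, together with an E3 ligase, passes it to a substrate. The E2 often sets which kind of ubiquitin chain is built, such as Lys48-linked chains that mark proteins for the proteasome or Lys63-linked chains used in signalling and DNA repair. Some members of the family carry ubiquitin-like proteins (such as NEDD8, ISG15 and FAT10) in place of ubiquitin, and in neurons E2 enzymes partner with ligases such as parkin.

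The 12 one-colour arrays lay on 3 slides, and slide and treatment nearly coincide. Slide 1 held control replicates 2 and 3 with fipronil replicates 7 and 8, slide 2 held the other 4 controls, and slide 3 held the other 4 fipronil samples. The 75th percentile of the processed signal lay between 245 and 279 on slide 1, between 379 and 472 on slide 2 and between 111 and 140 on slide 3. The share of spots well above background lay between 40.8% and 50.02%, and 0 spots were saturated. Every level below is a log2 signal relative to that array's 75th percentile, every difference is fipronil minus control on that log2 scale, and the number of arrays limits the precision. The difference within slide 1, the only slide with both treatments, is given beside the difference over the 12 arrays. Of 11 dopaminergic neuron markers, only Th, the rate-limiting enzyme of dopamine synthesis, and Aldh1a1 were measured often enough to be tested. Slc6a3, Slc18a2, Ddc, Nr4a2 and Pitx3 were not, so the defining markers of the labelled cell type were largely below detection. Of the markers of other cell types, 2 of 9 were tested for neurons, 1 of 6 for astrocytes and 2 of 7 for oligodendrocytes. For microglia and leukocytes 3 of 7 were tested, for endothelium 2 of 5 and for fibroblasts 4 of 6. Among these Col1a1 alone passed, higher with fipronil by 0.98 over 12 arrays. Its difference was 0.09 on slide 1 and 1.42 across slides 2 and 3, and these departed from each other (limma, adjusted p of 0.0369). In bulk RNA, fewer cells of a type and less RNA per cell cannot be told apart.

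The sequences of 3 probes are shown because results below turn on what they detect. Capitals in the Ube2d1 and Ube2l3 probes mark 9 bases that encode His-Pro-Asn, a motif near the catalytic cysteine of most E2 enzymes, at bases 24 to 32 and 40 to 48 from the 5′ end. The Ube2j2 probe has no capitals. Each sequence was read from the array files.
Ube2j2: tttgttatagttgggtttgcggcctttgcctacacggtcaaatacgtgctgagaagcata
Ube2d1: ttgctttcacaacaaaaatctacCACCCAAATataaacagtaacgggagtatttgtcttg
Ube2l3: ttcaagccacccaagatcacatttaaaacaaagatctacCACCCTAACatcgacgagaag

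The probes of close relatives share stretches that differ at few bases, which limits how far a signal can be assigned to 1 gene. The last 32 bases of the Ube2d2 probe and the first 32 bases of the probe named Ube2d4 align without gaps and are identical at 29 bases. Capitals mark the 3 bases that differ. The gene named Ube2d4 on the array is Ube2d2b in RefSeq. Whether either probe binds the other gene's transcript was not tested. Every value of this pair of probes given below thus remains uncertain between the genes, although it stands under 1 name.
Ube2d2: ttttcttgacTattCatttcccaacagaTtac
Ube2d4: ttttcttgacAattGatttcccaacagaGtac

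Fipronil-treated samples had lower transcript levels of Ube2j2, an E2 anchored in the endoplasmic reticulum membrane that works in the degradation of misfolded proteins there, and of Ube2z, which carries both ubiquitin and FAT10. Ube2j2 was 1.61-fold lower and Ube2z 1.30-fold lower over 6 fipronil and 6 control arrays. These were the only members past an adjusted p of 0.05 in limma with Benjamini-Hochberg adjustment over all tested genes, and 0 members rose. The 2 of 28 lower members are 7.14%, against 2.77% of all tested genes called lower, and the higher calls are 0 of 28 against 2.24%, with 5.01% of all genes called in either direction. At an unadjusted p under 0.05, 10 members passed, 9 of them lower, which is 35.7% against 25.0% of all genes. The median difference of the 28 genes was -0.13, against -0.08 over all tested genes, and 19 of the 28 were negative, 67.9% against 59.7%. With slide as a block, which takes the difference from slide 1, 0 of the 28 passed, against 0.0886% of all genes, and the smallest adjusted p was 0.102. With slide as a random block 0 passed as well, against 0.155%, with a smallest adjusted p of 0.0934 and 7 members at an unadjusted p under 0.05.

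**Figure D1:**
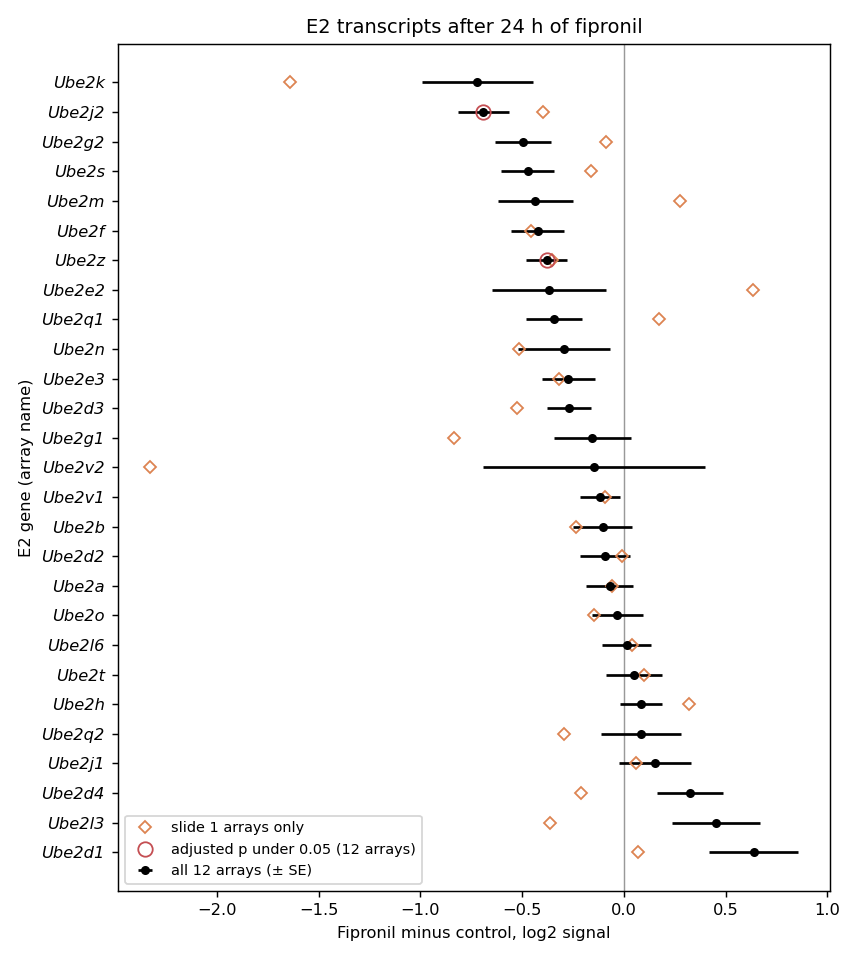
Log2 difference between fipronil and control for 27 of the 28 tested E2 genes, ordered by size. Black points with bars are the limma estimate over 12 arrays ± SE, red rings mark an adjusted p under 0.05, and orange diamonds are the difference within slide 1. Ube2j2 and Ube2z alone carry rings, and slide 1 lies far from the 12-array value for Ube2k and Ube2v2.

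Among the E2 enzymes of Lys48 chains and of degradation at the endoplasmic reticulum, Ube2j2 fell, and the levels of the other 4 did not pass the test. The log2 signal of Ube2j2 was 1.15, 1.32 and 1.5 (lowest, median and highest) in controls and 0.36, 0.60 and 1.0 with fipronil. All 6 fipronil arrays lay below all 6 controls, and the 4 on slide 3 lay lowest. Controls averaged 1.31 ± 0.13 (SD, n = 6) and fipronil samples 0.62 ± 0.24 (SD, n = 6), and limma put the difference at -0.69 ± 0.13 (SE), adjusted p 0.0154. On slide 1 the controls read 1.38 and 1.16 and the fipronil arrays 0.76 and 1.0, a difference of -0.40 ± 0.18 (SE) that did not pass adjustment (limma, adjusted p of 0.257). Ube2j2, on chromosome 5, kept its call without any single array.

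Ube2g2, which builds Lys48 chains on proteins of the endoplasmic reticulum, had control signals of 0.76, 0.86 and 1.04 and fipronil signals of -0.11, 0.36 and 0.73. Its groups did not overlap either, but the 2 fipronil arrays on slide 1, at 0.64 and 0.73, lay just under the controls beside them, at 0.78 and 0.76. The difference was -0.50 ± 0.14 (SE) over 12 arrays, with an adjusted p of 0.0542 in limma, and -0.09 on slide 1. Its second probe, well above background on 8 of the 12 arrays, gave -0.40 over 12 arrays and -0.26 on slide 1.

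Ube2k, an E2 that builds Lys48 chains without help and binds huntingtin, had the most negative member difference over 12 arrays and an even lower one on slide 1. Control signals were -2.35, -2.09 and -1.41 and fipronil signals -3.69, -2.66 and -2.0, so the groups overlapped. On slide 1 the controls read -1.41 and -1.52 and the fipronil arrays -2.52 and -3.69, well apart. The difference was -0.72 ± 0.27 (SE), at an adjusted p of 0.125 in limma, and the slide 1 difference was -1.64 ± 0.38 (SE), with an unadjusted p of 0.00122 and an adjusted p of 0.102. The controls on slide 2, at -2.35 to -1.87, were themselves lower than those on slide 1, and across slides 2 and 3 the difference was -0.26. With normexp background correction and 75th percentile scaling the 12-array difference was 0.09. The second Ube2k probe, well above background on 9 of the 12 arrays, gave -0.44 over 12 arrays and -1.22 on slide 1.

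Ube2g1, also a Lys48-chain enzyme, differed by -0.15 over 12 arrays and by -0.83 ± 0.25 (SE) on slide 1, where the controls read 0.48 and 0.30 and the fipronil arrays -0.07 and -0.81. Its slide 1 groups did not overlap, yet over 12 arrays the control range, -0.40 to 0.48, held most of the fipronil range, -0.81 to 0.26. Ube2j1, which serves the ligase Hrd1 (Syvn1) at the endoplasmic reticulum as a relative of Ube2j2, differed by 0.16 ± 0.18 (SE) over 12 arrays and by 0.06 on slide 1. Syvn1 itself differed by -0.15 over 12 arrays and by -0.10 on slide 1 and did not pass the test.

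**Figure D2:**
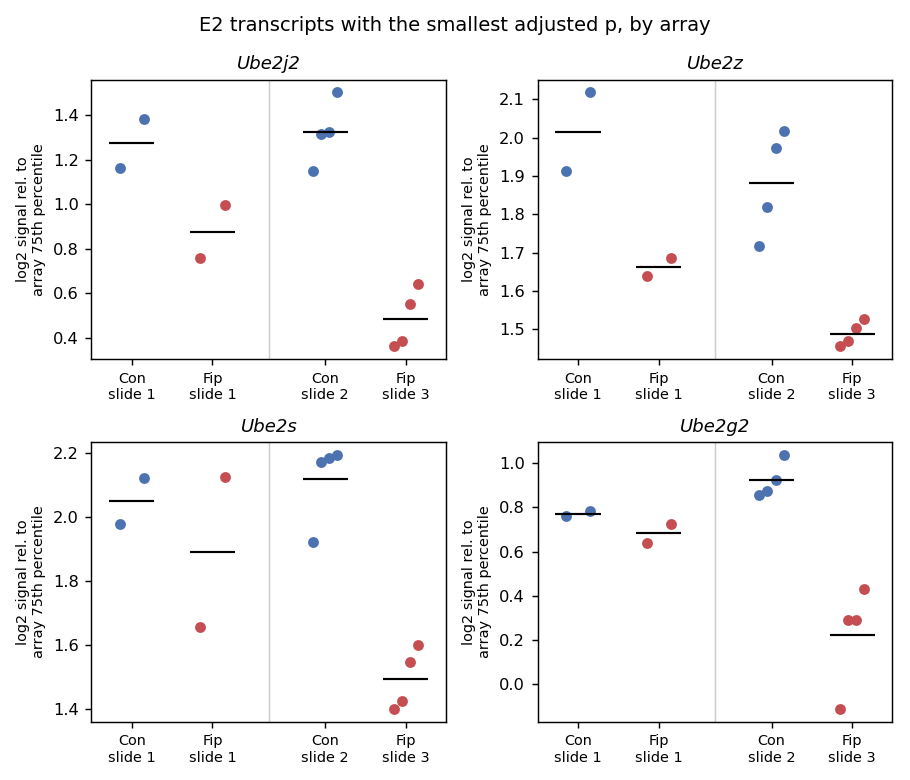
Log2 signal of the 4 E2 genes with the smallest adjusted p on each array, relative to the array's 75th percentile, with controls in blue, fipronil in red and bars at the mean of each group on each slide. Ube2j2 and Ube2z lie lower with fipronil on slide 1 and across slides 2 and 3, while for Ube2s fipronil replicate 8 (2.13) lies among the controls.

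Of the 5 E2 enzymes for ubiquitin-like modifiers, Ube2z fell, and the other 4 did not pass the test. The log2 signal of Ube2z was 1.72, 1.94 and 2.12 in controls and 1.45, 1.51 and 1.69 with fipronil. Every fipronil array lay below every control, by a small margin at the nearest pair. Controls averaged 1.93 ± 0.14 (SD, n = 6) and fipronil samples 1.55 ± 0.09 (SD, n = 6), a limma difference of -0.38 ± 0.10 (SE), adjusted p 0.0480. The slide 1 difference, -0.35 ± 0.15 (SE), was close to that of -0.39 across slides 2 and 3, and its adjusted p was 0.246. Without fipronil replicate 7 or without replicate 8 Ube2z stayed past the threshold, and without any 1 of the other 10 arrays it did not, with adjusted p-values from 0.0285 to 0.104 over the 12 fits. Ube2z lies on chromosome 10 and is charged by the E1 enzyme Uba6, which was not measured often enough to be tested.

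The 3 members whose groups did not overlap, Ube2j2, Ube2z and Ube2g2, were all lower with fipronil, 10.7% of the 28 against 2.55% of all tested genes with every fipronil array lower and 4.18% with no overlap in either direction.

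The NEDD8 enzymes Ube2m and Ube2f charge cullins, the scaffolds of a large class of ligases. Ube2f had control signals of -1.18, -0.86 and -0.75 and fipronil signals of -1.56, -1.39 and -1.03, with overlap at single arrays. Its difference was -0.42 ± 0.13 (SE), at an adjusted p of 0.0706 in limma, and -0.45 on slide 1. Ube2m had control signals of 1.43, 1.75 and 1.80 and fipronil signals of 0.91, 1.05 and 2.02. The 4 fipronil arrays on slide 3 lay below every control, while the 2 on slide 1, at 1.45 and 2.02, did not. The difference was therefore -0.43 over 12 arrays, -0.79 across slides 2 and 3 and 0.27 on slide 1, and the last 2 differed from each other with an adjusted p of 0.0241 in limma. Ube2l6, the ISG15 enzyme, differed by 0.01 ± 0.12 (SE) over 12 arrays and by 0.04 on slide 1.

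In the Lys63 group, Ube2n (Ubc13) is the catalytic enzyme, and Ube2v1 and Ube2v2 are its partners that lack the active cysteine. None of the 3 passed the test, and all 3 differences were negative both over 12 arrays and on slide 1. The sign of Ube2v2 over 12 arrays was not stable. Normexp background correction with 75th percentile scaling gave it a difference of 0.15, and fits without 1 array gave it -0.37 to 0.27. Ube2n differed by -0.29 ± 0.23 (SE) over 12 arrays and by -0.52 on slide 1, and its other probes gave -0.20 and -0.40 over 12 arrays and -0.54 and -0.77 on slide 1. Ube2v1 differed by -0.12 ± 0.10 (SE) and by -0.09 on slide 1.

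Ube2v2 varied more than any other member. Its signal was 0.01 and -0.23 in the slide 1 controls and -1.39 and -3.49 in the fipronil arrays beside them, a difference of -2.33 ± 0.65 (SE) with an unadjusted p of 0.00440 and an adjusted p of 0.128. On slide 2 the controls read -2.12, -2.34, -2.0 and -0.76, and on slide 3 the fipronil arrays read -1.33, -1.30, -0.44 and -0.37. Of the slide 2 controls, 3 thus lay within the range of the slide 1 fipronil arrays and 1 above it, and the difference across slides 2 and 3 was 0.94. The 2 estimates differed with an adjusted p of 0.0351 in limma, and over 12 arrays they gave -0.15 ± 0.55 (SE). Without fipronil replicate 7, the fit with slide as a block called Ube2k (-2.22, adjusted p of 0.0455) and Ube2v2 (-3.38, adjusted p of 0.0470), both then resting on fipronil replicate 8 alone on that slide, whose spread is assumed to equal that of the other arrays.

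**Figure D3:**
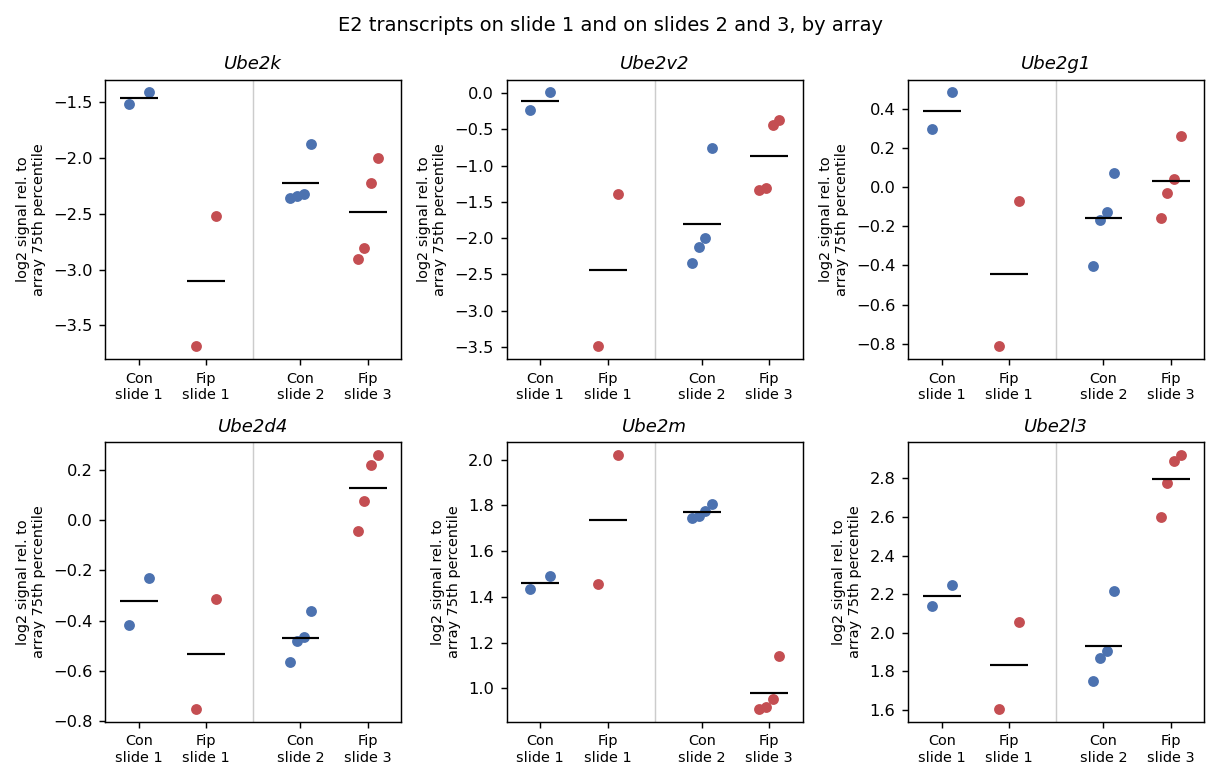
Log2 signal of 6 E2 genes on each array, relative to the array's 75th percentile, split by slide and treatment (controls blue, fipronil red, bars at means). For Ube2v2 and Ube2l3 the red points lie below the blue on slide 1 and mostly above them across slides 2 and 3, while for Ube2m the means have the opposite order.

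Ube2s, which extends Lys11 chains with the anaphase-promoting complex in mitosis, had control signals of 1.92, 2.15 and 2.19 and fipronil signals of 1.40, 1.57 and 2.13. Fipronil replicate 8 lay among the controls and the other 5 fipronil arrays lay below all of them. The difference was -0.47 ± 0.13 (SE), at an adjusted p of 0.0529 in limma, and -0.16 on slide 1. Proliferation genes were counted beside it, to be read against the 2.77% of all tested genes called lower and the 2.24% called higher. Of 16 S phase genes, 0 rose and 2 fell (Gins2 by 0.72 and Pcna by 0.39 on the log2 scale, with slide 1 differences of -0.59 and -0.49). Their median was -0.34, and -0.20 on slide 1, and their summed signal ranged from 106 to 143 times the 75th percentile in controls and from 99.6 to 120 with fipronil. Of 15 genes of G2 and M phase, 2 rose (Nusap1 by 0.55 and Prc1 by 0.58) and 0 fell, and the median was 0.09. On slide 1 their median was -0.15, with 13 of 15 negative, Nusap1 differed by 0.22 and Prc1 by -0.0048, and for Prc1 slide 1 departed from slides 2 and 3 with an adjusted p of 0.0327 in limma. The sums were 48.3 to 64.3 in controls and 56.5 to 66.2 with fipronil. Their part in the Ube2s value was not tested.

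The 3 enzymes of DNA damage tolerance and crosslink repair did not pass the test. Ube2a and Ube2b, the mammalian Rad6 proteins that modify PCNA, differed by -0.07 ± 0.12 and -0.10 ± 0.15 (SE) over 12 arrays and by -0.06 and -0.24 on slide 1. Ube2t, the E2 of the Fanconi anaemia pathway, differed by 0.05 ± 0.14 (SE) and by 0.10 on slide 1. Its ligase partner Fancl fell by 0.97 ± 0.18 (SE) on the log2 scale, with an adjusted p of 0.0160 in limma and a slide 1 difference of -0.61.

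None of the 7 enzymes that serve many ligases passed the test. Ube2d1 had the largest positive difference of any member, 0.64 ± 0.22 (SE) with an adjusted p of 0.0964 in limma. Its signal was -2.72, -1.92 and -1.74 in controls and -1.89, -1.51 and -0.74 with fipronil, with overlap at the low end of the fipronil arrays. On slide 1 the difference was 0.07. The second Ube2d1 probe, well above background on 9 of the 12 arrays, gave -0.45 over 12 arrays and 0.04 on slide 1. Ube2d3 differed by -0.27 over 12 arrays and by -0.53 on slide 1, where both fipronil arrays lay below both controls. Ube2d2 differed by -0.09 and its second probe by -0.49, with -0.01 and -0.39 on slide 1. Ube2d4 differed by 0.33 over 12 arrays and by -0.21 on slide 1, against 0.60 across slides 2 and 3 (adjusted p of the difference 0.0475 in limma). Ube2e3 differed by -0.27, and by -0.32 on slide 1.

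Ube2e2 was well above background on all 6 control arrays and on 4 of the 6 fipronil arrays. It differed by -0.37 over 12 arrays and by 0.63 on slide 1, against -0.87 across slides 2 and 3, and slide 1 departed from slides 2 and 3 with an adjusted p of 0.0378 in limma. With normexp background correction and 75th percentile scaling it was positive and called higher (limma, adjusted p of 0.00364), under a setting that called 6776 of the 13542 genes.

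Ube2l3 (UbcH7), the E2 used by parkin and by HECT ligases, showed how far the value depended on the probe and the slide. The probe printed above read 1.75, 2.02 and 2.25 in controls and 1.60, 2.69 and 2.92 with fipronil, with the 4 fipronil arrays of slide 3 above all controls and the 2 of slide 1, at 1.60 and 2.06, not above them. The difference was 0.45 ± 0.22 (SE) over 12 arrays, with an adjusted p of 0.211 in limma, -0.36 on slide 1 and 0.86 across slides 2 and 3, the last 2 differing with an adjusted p of 0.0218. Its 3 other probes gave -0.11, -0.44 and -0.35 over 12 arrays and -0.24, -0.38 and -0.20 on slide 1. All 4 probes were thus lower with fipronil on slide 1.

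Of the large or less studied members, none passed the test. Ube2q1 differed by -0.34 over 12 arrays, 0.17 on slide 1 and -0.60 across slides 2 and 3 (adjusted p of 0.0307 in limma for slide 1 departing from slides 2 and 3). Ube2q2 differed by 0.09, and by -0.30 on slide 1. Ube2h, the E2 of the CTLH ligase complex, differed by 0.08 and by 0.32 on slide 1, and Ube2o, which joins E2 and E3 activity in 1 protein, by -0.03 and by -0.14.

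In all, 10 members were measured by several tested probes. Over 12 arrays the probes of 6 of these 10 genes had 1 direction, against 56.5% of the 2223 such genes on the array, and on slide 1 the probes of all 10 had 1 direction, against 72.2%. The genes whose probes disagreed over 12 arrays included Ube2d1, Ube2l3 and Ube2q2. In each of these 3 the probe used for the gene was positive and the others negative, so the value given for the gene depends on the choice of probe. When all 42 tested probes of members were tested singly, 2 passed, those of Ube2j2 and Ube2z, and 32 were negative. Ube2j2 and Ube2z each have 1 probe with 1 spot, so these are the same values as in the fit over genes. No second probe of either gene was available for comparison. Of all probes, 5.30% passed and 2.98% were lower.

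**Figure D4:**
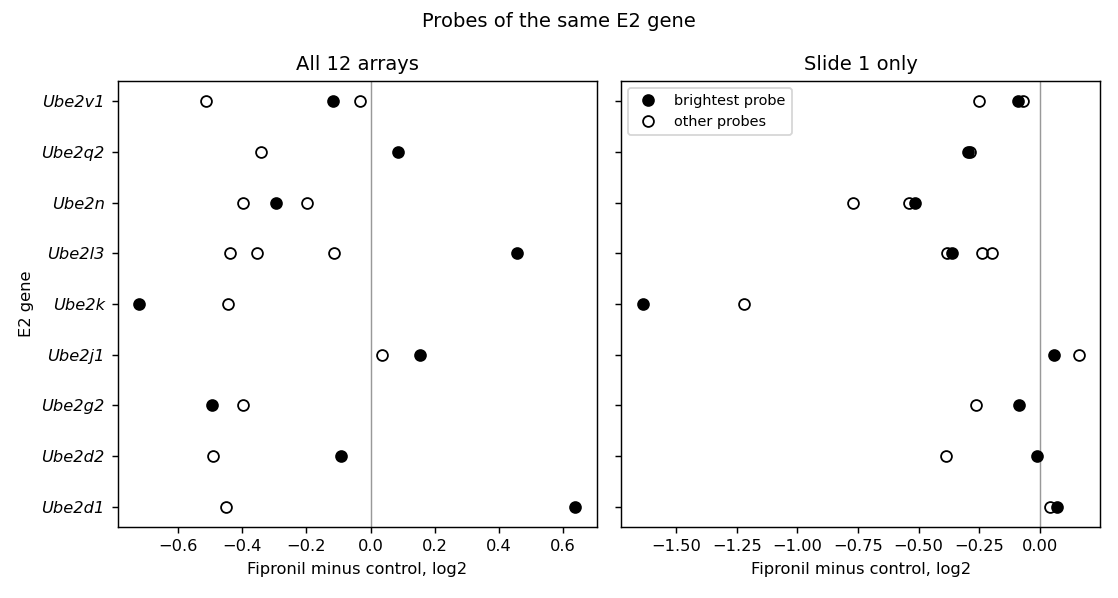
Log2 difference between fipronil and control for each tested probe of 9 of the 10 E2 genes with several probes, over all 12 arrays (left) and within slide 1 (right). Filled points are the probes used for the gene and open points the other probes, and on slide 1 every gene drawn has its probes on 1 side of zero.

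Within slide 1, the members were lower more often than genes in general, although none passed adjustment. Both fipronil arrays lay below both controls for 13 of the 28 members, 46.4% against 28.5% of all tested genes, and above both for 3, 10.7% against 25.2%. At an unadjusted p under 0.05, 7 members passed, all lower. They are 25.0% of the members, against 19.0% of all genes in either direction and 10.5% lower at that threshold. Among these 7 were Ube2k, Ube2v2, Ube2g1, Ube2d3, Ube2z and Ube2j2. The median slide 1 difference of the members was -0.19, against -0.02 over all genes, and 20 of 28 were negative, 71.4% against 51.6%. This was not particular to the members. On slide 1, 24 of 30 enzymes that remove ubiquitin or ubiquitin-like proteins, 30 of 43 ligases and adaptors and 5 of 7 E1 enzymes were negative. Of the ubiquitin and ubiquitin-like modifiers 6 of 13 were negative, and of the E2 genes that carry other names 2 of 6. These counts rest on 2 arrays of each treatment.

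Across slides 2 and 3, where slide and treatment cannot be told apart, the median member difference was -0.10, the same as over all genes. The direction matched that on slide 1 for 17 of 28 members, 60.7% against 43.8% of all genes. The slide 1 difference and the difference across slides 2 and 3 departed from each other at an adjusted p under 0.05 for 7 of 28 members, 25.0% against 9.14% of all genes. Among these were Ube2l3, Ube2m, Ube2q1, Ube2v2, Ube2e2 and Ube2d4, and each of these 6 changed sign between the 2 estimates. With the GC trend of the probes removed, an alternative chosen after seeing the data, 2 departed in place of 7.

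**Figure D5:**
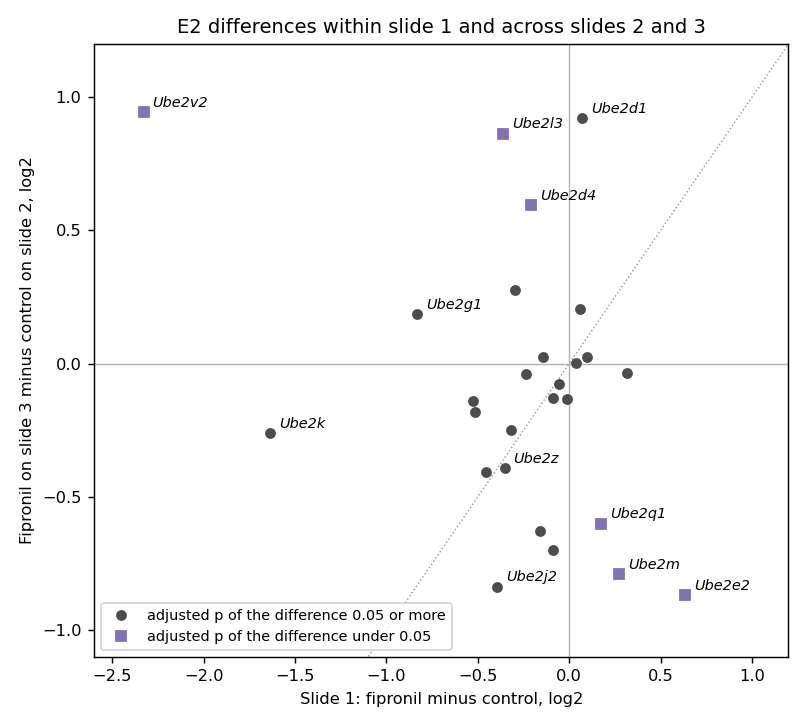
Log2 difference within slide 1 (horizontal axis) against the difference between fipronil on slide 3 and controls on slide 2 (vertical axis) for 27 of the 28 tested E2 genes, with purple squares where the 2 estimates departed at an adjusted p under 0.05. Ube2j2, Ube2z and Ube2k lie at negative values on both axes, and the 6 squares lie in the quadrants of opposite sign.

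The remaining parts of the ubiquitin pathway were counted from lists by function, and their counts are to be read against the 2.77% of all tested genes called lower and the 2.24% called higher. Of 7 tested E1 enzymes, 0 rose and 1 fell, Uba2, a subunit of an E1 for a ubiquitin-like modifier. Uba2 differed by -0.51 ± 0.11 (SE), with an adjusted p of 0.0204 in limma and a slide 1 difference of -0.65. Of 13 ubiquitin and ubiquitin-like modifiers, 0 rose and 2 fell. These were Urm1, a sulfur carrier also attached to proteins, by 0.81 on the log2 scale (adjusted p of 0.0187, slide 1 difference -0.29) and Ufm1 by 0.56 (adjusted p of 0.0186, slide 1 difference -0.77). For Uba2, Urm1 and Ufm1 every fipronil array lay below every control. Ufc1, the E2 of Ufm1, differed by 0.45 with an adjusted p of 0.0620, and by 0.17 on slide 1, and it was chosen after its value was seen.

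Among 6 tested E2 genes that carry other names, 0 passed in either direction. Cdc34, the main E2 of SCF ligases, differed by -0.28 (limma adjusted p of 0.167, slide 1 difference -0.33), and Atg3, the E2 of autophagy, by 0.08 (slide 1 difference -0.53). Of 43 ligases and adaptors that work with these enzymes, 1 rose (Ube3b, by 0.49 ± 0.11 SE, adjusted p of 0.0289, slide 1 difference 0.24) and 1 fell (Fancl). Of 30 enzymes that remove ubiquitin or ubiquitin-like proteins, 1 rose, the deubiquitinase Usp4, by 0.49 ± 0.12 (SE) with an adjusted p of 0.0339 and a slide 1 difference of 0.45, and 0 fell. The median differences over 12 arrays were -0.17 for E1 enzymes, -0.21 for modifiers, 0.12 for E2 genes of other names, -0.15 for ligases and -0.14 for deconjugating enzymes, against -0.08 over all genes. On slide 1 they were -0.38, 0.04, 0.29, -0.25 and -0.25 in the same order, against -0.02 over all genes, so the modifiers had the opposite sign there.

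The promoters of Ube2j2 and Ube2z are shown because these members fell together over the 12 arrays. They are the 250 bases before each gene's start in RefSeq, build GRCr8, given 5′ to 3′ on the gene's strand. That of Ube2j2 lies at chr5:171815362-171815611 on the plus strand, and capitals mark the ETS core CCGGAAG, which begins 22 bases before the start. That of Ube2z lies at chr10:81513642-81513891 on the minus strand, and capitals mark 4 GC boxes, GGGCGG on either strand.
Ube2j2: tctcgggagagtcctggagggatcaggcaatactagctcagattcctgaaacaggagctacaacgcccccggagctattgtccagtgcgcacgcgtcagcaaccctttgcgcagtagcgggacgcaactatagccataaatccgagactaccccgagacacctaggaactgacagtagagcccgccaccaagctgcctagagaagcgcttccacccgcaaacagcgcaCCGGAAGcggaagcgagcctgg
Ube2z: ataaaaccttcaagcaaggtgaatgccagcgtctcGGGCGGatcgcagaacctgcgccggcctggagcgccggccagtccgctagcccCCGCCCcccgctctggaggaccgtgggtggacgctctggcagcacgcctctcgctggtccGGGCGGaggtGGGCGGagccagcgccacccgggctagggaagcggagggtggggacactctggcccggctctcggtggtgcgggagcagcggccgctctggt

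Of the 28 tested members, 25 had a promoter entry. The shares below have unlike bases. Those of members count genes that passed the signal filter, with a match in any promoter of the gene. Those of all promoters count every entry, whether or not its gene was detected. On either strand, 16 of the 25 held a GC box, 64.0% against 30.5% of all 33469 promoters, and 6 held the ETS core, 24.0% against 7.27%. The other motifs searched were at or below the share of all promoters. The CCAAT box was in 32.0% against 34.0%, the E-box CACGTG in 4.0% against 5.59%, the cell cycle homology region TTTGAA in 8.0% against 16.2%, and the cAMP response element in 0 of the 25 against 1.59%. The members' promoters were also richer in G and C, with a median of 67.4% against 51.2%, which both motifs share. The endoplasmic reticulum stress element, which contains a CCAAT box, was in 0 of the 25 and in 0.0657% of all promoters. A match describes letters and is not a bound site.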

How the data were processed

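Total RNA of 12 samples of N27 cells was labelled with Cy3 and hybridised to one-colour Agilent rat arrays, 1 array a sample, and each sample's group was taken from its title. The authors scanned and quantified the arrays in Agilent's Feature Extraction software (10.7 per the submitters' processing notes, 10.1.1.1 per the file headers). Per the file headers, the processed signal is a background-subtracted intensity that is not scaled between arrays, and the other columns used are flags set by the extraction software. The deposited table holds log2 values that were quantile-normalised per the labels' titles, with a lowest value of 1.5 and column medians of 3.04 to 3.06 over spots that are not controls. Each of its columns was matched to its array's log2 processed signal (correlation at least 0.998), and it served as an alternative.

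From the 62976 spots of each array, control spots were removed. A spot flagged as an outlier was dropped only where its probe had another spot free of that flag. Probes with 1 spot, among them those of Ube2j2 and Ube2z, therefore kept their value even if flagged. The log2 processed signal minus each array's 75th percentile was averaged over spots of a probe. Probes well above background on at least 6 of 12 arrays (16291) were kept, and the probe with the highest mean represented a gene. Names came from RefSeq (GRCr8) where a probe matched it, and 17381 of 45598 probes without a match kept the name in the array files. Members kept their array names throughout. Fipronil was compared with control in R 4.3.3 (package data.table, 1.17.8) by the two-sided moderated test of limma 3.58.1 (lmFit, eBayes), fitted over 13542 genes, with Benjamini-Hochberg adjustment and a threshold of 0.05. Tables were made with Python 3.11.15 and pandas 2.3.3, and the fit was tested on simulated data. The simulated arrays held no slide effect, so they cannot show how the fit behaves where slide and treatment nearly coincide.

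Slide was a fixed block, a random block (duplicateCorrelation, consensus correlation 0.26) or split in separate fits, and the difference between slide 1 and slides 2 and 3 was a contrast. Other alternatives changed the scaling, the background (normexp, offset 50), the dim-probe filter, outlier spots, the probe of a gene, the source of values and the arrays included. Of the 28 tested members, 27 are described, and counts and medians are over all 28. Array values were given for members past the threshold, the 6 others with the largest difference and, of those described, members with the largest slide 1 difference, and of each pathway list up to 4 members past the threshold, or the 2 of highest signal where none passed. The members and the lists were chosen with earlier results of these data known. Another gene of the family, 1 tested member and some pathway genes are not reported here.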

Additional observations from a re-analysis of the deposited data

Results flagged for a closer look

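In 3 of 56 sets of 6 arrays (each tested member in each group), 1 array lay further from the others than Dixon's critical value of 0.625 for the gap over the range, and chance gives this in about 1 in 20 sets. Ube2j1 read 0.53 on control replicate 3, below the other controls. Ube2s read 2.13 on fipronil replicate 8, above the other fipronil arrays, and Ube2v2 read -3.49 on that same array, below the others.

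For 6 of the 27 members described, the difference on slide 1 departed from the difference across slides 2 and 3 at an adjusted p under 0.05 (limma contrast over all genes). The slide 1 difference minus the other was -0.81 for Ube2d4, 1.5 for Ube2e2, -1.22 for Ube2l3, 1.06 for Ube2m, 0.77 for Ube2q1 and -3.27 for Ube2v2. The contrast includes the difference between slide 2 and slide 3.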

How the results depend on the processing

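The call of Ube2j2 held in 10 of 13 alternatives and without each array in turn. It was lost with slide as a fixed block, slide as a random block and the replicate block, and its direction held in all 13. Ube2z kept its direction in all 13 and its call in 6. Both genes have 1 probe with 1 spot, so keeping outlier spots or averaging probes could not change their values. Those alternatives are counted among the ones that held for both genes. Against 2 lower and 0 higher members, 1 was lower with quantile normalisation, median scaling, the deposited table or the GC trend removed (added after seeing the data), 8 lower and 2 higher with normexp and the 75th percentile (where 6776 of 13542 genes were called), 4 lower with a filter on all 12 arrays, 6 lower and 2 higher with no filter (16313 of 36181 genes), and 0 with slide as a fixed or random block. Leaving out 1 array gave 1 to 7 lower and 0 to 2 higher, the extremes being 7 lower without fipronil replicate 8 (2022 of 13542 genes) and 2 higher without fipronil replicate 7. The median member difference, -0.13, was -0.23 with median scaling, -0.053 with normexp and the 75th percentile, and -0.19 to -0.08 without 1 array. These settings moved the median of all genes by -0.10 and 0.25, and no filter by 0.63. Slide 1 calls ranged from 0 to 2 without 1 array, slide departures fell from 7 to 2 with the GC trend removed, and probe calls from 2 to 1 under quantile normalisation. The pathway lists, with 4 lower and 2 higher, had 22 and 21 with normexp and the 75th percentile, 7 and 5 with no filter, 0 and 0 with either slide block, 0 higher with median scaling, and 3 to 10 lower and 0 to 5 higher without 1 array. The replicate numbers 2, 3, 7 and 8 recur in both groups, but the deviations of arrays with 1 number from their group means had correlations over genes of 0.43, 0.08, -0.11 and -0.31, so the numbers were not taken as pairs. With the replicate block, 0 members, 0 pathway members and 0 of all genes passed, and the median member difference was -0.21. The causes of these shifts were not tested. Signal over background limits Ube2e2, dim on 2 fipronil arrays, and the 3 members not tested. It also limits the second probes of Ube2d1, Ube2g2, Ube2k and Ube2q2, well above background on 9, 8, 9 and 11 of the 12 arrays.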

Other observations

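A probe outside the naming rule, annotated LOC689226 in the array files, belongs to Ube2r2 in RefSeq, an E2 of SCF ligases related to Cdc34. Its log2 signal was 3.38, 3.59 and 3.73 (lowest, median and highest) in controls and 3.11, 3.25 and 3.92 with fipronil. The groups overlapped, since 4 fipronil arrays lay below every control and 1 above. The difference was -0.18 ± 0.15 (SE) over 12 arrays, with an adjusted p of 0.453 in limma, 0.35 on slide 1 and -0.45 across slides 2 and 3, and the last 2 departed from each other with an adjusted p of 0.0307.

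Uba3, a subunit of the NEDD8-activating enzyme that charges Ube2m and Ube2f, differed by 0.50 ± 0.38 (SE) over 12 arrays and by -1.12 on slide 1, and the slide 1 difference departed from that across slides 2 and 3 with an adjusted p of 0.0207 in limma. Uba3 was chosen after its values were seen.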
